A study of Mus musculus with 6 samples.

Results

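The AP-1 genes and other immediate early genes described here are 10 genes fixed by name: the Jun family (Jun, Junb, Jund), the Fos family (Fos, Fosb, Fosl1, Fosl2), Atf3, Egr1 and Ier3. All 10 were among the 12803 genes of the expression table and all 10 passed the filter on low values. They were compared between KO, a podocyte-derived mouse kidney line labelled as a Myosin 1e knockout (3 libraries), and WT, the mouse podocyte line that the labels name Mundel (3 libraries, genotype given as WT). The labels give no treatment, age or time, and whether the KO line is 1 clone is not given in the sources used here. A heterozygous genotype is mentioned for the series and not analysed here. Each genotype stands for 1 line, so genotype and other differences between the lines cannot be told apart. The replicates are called biological without a statement on how cultures were separated, so p-values reflect only how these samples spread, which may be technical.

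Immediate early genes are transcribed within minutes of a stimulus such as serum, a growth factor, stretch or stress, from factors already present in the cell, and their short-lived transcripts fade quickly. The Fos and Jun proteins pair through leucine zippers and bind the AP-1 site, whereas ATF3 pairs with Jun proteins and binds related sites. EGR1 is a zinc finger factor that binds GC-rich sites, and IER3 is a small stress-induced protein tied to survival and ERK signalling. In podocytes and other kidney cells these genes are known for their response to injury and growth signals. Because of the short response time, the handling of a culture before lysis can alter their transcripts.

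In the KO line, Ier3, Fosb, Atf3, Fosl1 and Junb were higher, and Egr1, Fos and Fosl2 were lower. Jun and Jund did not pass the test. The largest rise was that of Ier3, to 244 ± 15.9 CPM (counts-per-million) in KO against 29.4 ± 2.78 CPM in WT, and the largest fall that of Egr1, to 82.0 ± 27.6 CPM in KO against 396 ± 41.9 CPM in WT (SD, n = 3 each). Thus 8 of the 10 passed (80%), 5 higher and 3 lower, at a Benjamini-Hochberg adjusted p under 0.05 in limma. Over all 12616 genes tested, 68.1% passed, with 34.3% higher and 33.8% lower, so the share among the 10 members lies near that of all genes and is no result about them. The median log2 fold change of the members was 0.30 and that of all genes tested 0.01, and without sign the medians were 0.72 and 0.51. In 7 of the 10 the groups did not overlap, against 73.5% of all genes tested, and 4 changed at least 2-fold, against 27.9% of all genes tested.

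The sequence before the RefSeq start of 5 of these genes is shown, because they hold the letters through which AP-1, CREB and EGR factors are known to act, or lie before the member that changed most. RefSeq promoter windows (GRCm38.p6) of 8 of the 10 members were searched. Egr1 and Fosl1 were not among them, so whether these words lie before Egr1 or Fosl1 was not tested. The 250 bases before the start are given 5′ to 3′ on the strand of the gene, from chr12:85473640-85473889 (plus strand) for Fos, chr7:19310046-19310295 (minus strand) for Fosb, chr4:95052223-95052472 (minus strand) for Jun, chr1:191183334-191183583 (minus strand) for Atf3 and chr17:35821463-35821712 (plus strand) for Ier3. The RefSeq start is the same base as the GENCODE start for Fos and Jun, and lies within 30 bases of it for Fosb, Ier3 and Junb. For Atf3 it is an internal start, 34706 bases inside the gene, and for Fosl2 it lies 671 bases inside, while for Jund it lies 1210 bases before the gene. Capitals mark a matched word.
Fos: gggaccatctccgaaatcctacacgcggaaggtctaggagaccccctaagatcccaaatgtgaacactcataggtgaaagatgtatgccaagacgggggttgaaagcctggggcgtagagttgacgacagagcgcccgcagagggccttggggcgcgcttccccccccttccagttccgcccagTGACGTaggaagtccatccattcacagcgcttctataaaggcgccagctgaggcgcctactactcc
Fosb: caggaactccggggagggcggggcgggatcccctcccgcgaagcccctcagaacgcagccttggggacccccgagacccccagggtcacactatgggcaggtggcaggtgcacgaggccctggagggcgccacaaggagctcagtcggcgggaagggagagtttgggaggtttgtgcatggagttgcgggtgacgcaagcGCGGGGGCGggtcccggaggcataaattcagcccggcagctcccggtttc
Jun: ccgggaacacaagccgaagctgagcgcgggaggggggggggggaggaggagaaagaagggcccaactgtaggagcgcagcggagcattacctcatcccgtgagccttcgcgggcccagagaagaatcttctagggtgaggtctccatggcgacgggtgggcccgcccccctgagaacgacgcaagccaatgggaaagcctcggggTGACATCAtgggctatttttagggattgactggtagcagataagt
Atf3: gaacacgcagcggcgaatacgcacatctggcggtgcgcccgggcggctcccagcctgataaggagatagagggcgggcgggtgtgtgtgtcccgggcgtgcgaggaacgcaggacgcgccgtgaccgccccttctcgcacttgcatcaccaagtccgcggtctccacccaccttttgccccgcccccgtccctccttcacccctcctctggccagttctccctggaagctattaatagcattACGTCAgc
Ier3: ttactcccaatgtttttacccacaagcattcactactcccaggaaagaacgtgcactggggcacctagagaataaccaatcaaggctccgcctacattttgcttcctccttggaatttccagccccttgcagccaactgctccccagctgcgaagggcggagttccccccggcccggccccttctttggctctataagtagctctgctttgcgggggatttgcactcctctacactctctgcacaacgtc
Both strands were searched for the AP-1 word TGACTCA, the CRE word TGACGTCA and its core TGACGT (which the full word contains), the Jun-type word TGACATCA, the EGR word GCGGGGGCG and the CArG box of serum response factor. Of the 32851 windows of the same length in the table, 4.46% held the AP-1 word, 1.55% the CRE word, 6.47% its core, 2.93% the Jun-type word, 2.57% the EGR word and 1.47% a CArG box. The CRE core lay at positions -66 to -61 from the start of Fos, and at -8 to -3 on the opposite strand before the internal start of Atf3. The Jun-type word lay at -45 to -38 before Jun, and the EGR word at -50 to -42 before Fosb and at -79 to -71 before Fosl2. None of these words was found in the windows of Ier3, Junb and Jund, of which that of Jund is not the sequence next to the GENCODE gene. A match is a run of letters and not a measured site of binding.

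The libraries held 35447096 to 41360689 reads in the listed genes in KO and 35763961 to 42106461 in WT, so that 3 reads equal 0.0703 to 0.0856 CPM. The targeted gene Myo1e was at 17.3 ± 1.4 CPM in KO and 177 ± 8.41 CPM in WT, which fits the labels in all 6 libraries. Of 15 podocyte markers 10 were in the table, of which 3 were higher and 6 lower in KO. Their summed level was 1314 to 1655 CPM in KO and 2200 to 2536 CPM in WT, which hides unlike shifts of single markers. Plce1 was at 1.37 CPM in KO and 226 CPM in WT, and Synpo at 209 CPM in KO and 681 CPM in WT. Wt1 was at 0.12 CPM in KO and 4.4 CPM in WT. Podxl, 1 of the 3 that were higher, was at 106 CPM in KO and 50.4 CPM in WT. Nphs1, which encodes nephrin of the slit diaphragm, was not analysed here. Of 16 markers of tubular epithelium 12 were in the table, 8 higher and 4 lower, with sums of 7181 to 7635 CPM in KO and 1869 to 2733 CPM in WT, where Cldn3 and Cldn7 had 0 reads in all WT libraries. The sums hide opposite shifts, since 8 of the 12, such as Epcam at 386 CPM in KO and 0.0431 CPM in WT, were under 1 CPM in WT, while Aqp1 was at 2.7 CPM in KO and 640 CPM in WT, Lrp2 at 14.1 CPM in KO and 331 CPM in WT, and Cdh16 at 92.5 CPM in KO and 975 CPM in WT. Of 12 fibroblast and mesangial markers 5 were in the table, 4 of them lower and none higher, with sums of 327 to 653 CPM in KO and 3449 to 3852 CPM in WT. Of 10 endothelial and 10 leukocyte markers, 3 and 2 were in the table, with sums of 6.69 to 7.85 CPM in KO and 9.23 to 18.5 CPM in WT for the first and 56.1 to 75.5 CPM in KO and 37.1 to 56.9 CPM in WT for the second. Most of the fibroblast and mesangial sums came from Vim and Acta2, and most of the leukocyte sums from Csf1r. Vim was at 3.44 CPM in KO and 2168 CPM in WT, and Acta2 at 500 CPM in KO and 1298 CPM in WT. Csf1r was at 60.6 CPM in KO and 44.3 CPM in WT, and no leukocyte marker passed. Over all genes tested, 68.1% passed, with 34.3% higher and 33.8% lower. The part of the marker shifts in the results on the immediate early genes was not tested. In bulk samples fewer cells of a type and less RNA per cell cannot be told apart.

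**Figure D1:**
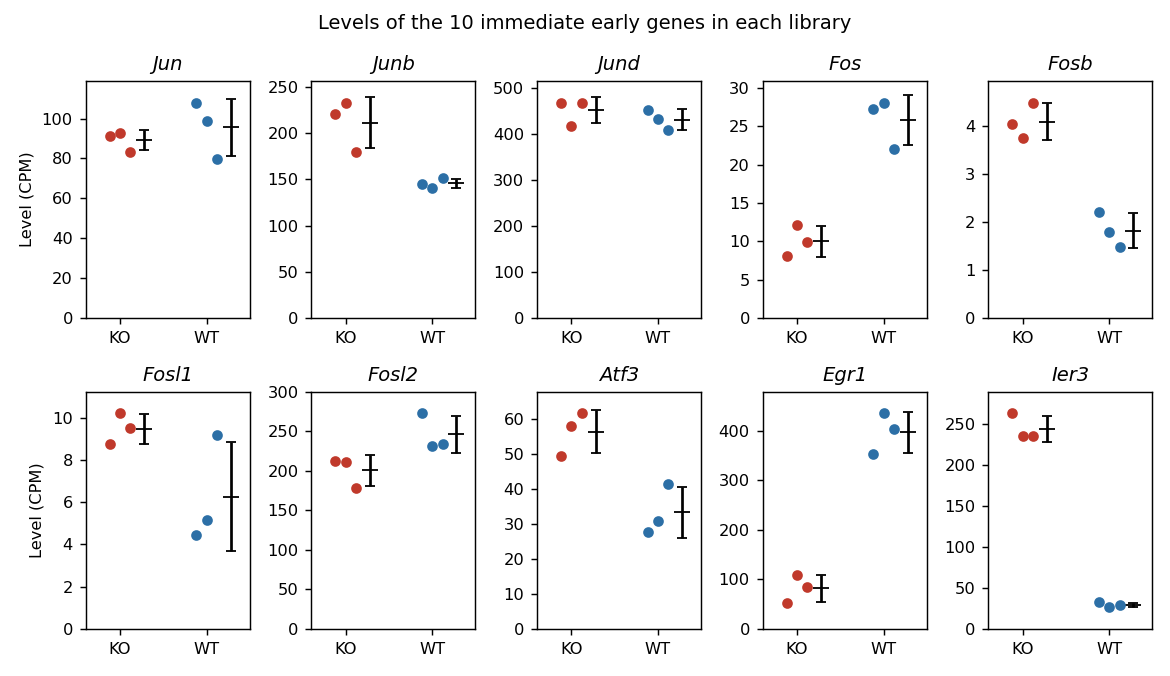
Level of each of the 10 genes in CPM (y axis, from 0) in the 3 KO libraries (red) and the 3 WT libraries (blue). The bars to the right of the points are the mean and SD. Ier3, Fosb, Atf3 and Junb lie above WT in every KO library and Egr1, Fos and Fosl2 below, while the groups overlap for Jun, Jund and Fosl1.

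Of the Jun family, Junb was higher in the KO line and Jun and Jund did not pass. Jun (chromosome 4, 95049034 to 95052222, minus strand, 1 exon) encodes c-Jun, the member that activates transcription most strongly. It stood at 91.4, 92.6 and 83.4 CPM across KO libraries, against 108, 99.0 and 79.9 CPM across WT libraries. The KO values lay within the WT range (log2 fold change -0.09, 95% interval -0.35 to 0.17, adjusted p = 0.502). Jund (chromosome 8, 70698949 to 70700616, plus strand, 1 exon) encodes the member that most cells keep at a steady level. It was at 468, 418 and 468 CPM across KO libraries, against 453, 432 and 408 CPM across WT libraries. The groups overlapped here too (log2 fold change 0.07, 95% interval -0.13 to 0.27, adjusted p = 0.52). A p that misses the threshold does not show equal levels, and for both genes the interval still holds small changes in either direction.

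Junb (chromosome 8, 84974484 to 84978718, minus strand) encodes a Jun protein that activates weakly and can restrain c-Jun. It stood at 221, 233 and 180 CPM across KO libraries, against 145, 141 and 151 CPM across WT libraries. Every KO library lay above every WT library, and KO library 3 lay nearest to them. The log2 fold change was 0.53 (SE 0.10, adjusted p = 0.0019). Exons of the peroxidase gene Prdx2 overlap 7.5% of the exon length of Junb on the opposite strand. Prdx2 was at 314 ± 52.9 CPM in KO and 210 ± 33.5 CPM in WT, and with the strand setting of the counting not given, reads of the overlap cannot be told apart. The antisense gene Gm11175 overlaps 52.6% of the exon length of Jund and was at 2.46 ± 0.943 CPM in KO and 3.02 ± 0.628 CPM in WT. The antisense gene Junos overlaps 7.3% of that of Jun and was not analysed here.

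The Fos family went both ways: Fosb and Fosl1 were higher and Fos and Fosl2 lower in the KO line. Fos (chromosome 12, 85473890 to 85477273, plus strand) encodes c-Fos, the classical serum-induced partner of Jun. It was at 8.05, 12.2 and 9.87 CPM across KO libraries, against 27.3, 28.1 and 22.1 CPM across WT libraries. The highest KO library stayed well below the lowest WT library. The mean was 10.02 ± 2.06 CPM in KO and 25.9 ± 3.26 CPM in WT (log2 fold change -1.38, SE 0.17, adjusted p = 0.00013).

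Fosb (chromosome 7, 19302696 to 19310051, minus strand) encodes FosB, whose truncated splice form gathers under repeated stimulation. It was low in both lines, at 4.04, 3.74 and 4.48 CPM across KO libraries, against 2.20, 1.79 and 1.47 CPM across WT libraries, from 464 reads in KO and 215 in WT. All KO libraries were above all WT libraries, the reverse of Fos (log2 fold change 1.17, SE 0.20, adjusted p = 0.00095). Reads were given per gene, so the splice forms were not told apart.

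Fosl1 (chromosome 19, 5447547 to 5455946, plus strand) encodes Fra-1, a Fos protein without the strong activation domain of c-Fos, often raised by lasting ERK activity. It was at 8.74, 10.2 and 9.50 CPM across KO libraries, against 4.45, 5.15 and 9.19 CPM across WT libraries. WT library 3 lay within the KO range and the other WT libraries below it. The log2 fold change was 0.66 (SE 0.25) and just passed (adjusted p = 0.0449, limma). The call was lost on leaving out KO library 1, 2 or 3 or WT library 1 or 2 (adjusted p = 0.0776, 0.118, 0.104, 0.125 and 0.129), with 0.00096 to 0.129 over 15 alternatives. Exons of Ccdc85b overlap 57.2% of the exon length of Fosl1 on the opposite strand. That gene was lower in KO, at 18.1 ± 3.24 CPM in KO and 32.9 ± 2.68 CPM in WT (log2 fold change -0.87, adjusted p = 0.00058), and how reads of the overlap were assigned is not given in the sources used here.

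Fosl2 (chromosome 5, 32135801 to 32157842, plus strand) encodes Fra-2 and had the highest level of the family. It was at 213, 211 and 178 CPM across KO libraries, against 273, 232 and 234 CPM across WT libraries. All KO values lay below all WT values by a small margin (log2 fold change -0.30, SE 0.10, adjusted p = 0.03). The call was lost without KO library 3 (adjusted p = 0.0812) or WT library 1 (adjusted p = 0.0888), with 0.022 to 0.0888 over 15 alternatives.

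**Figure D2:**
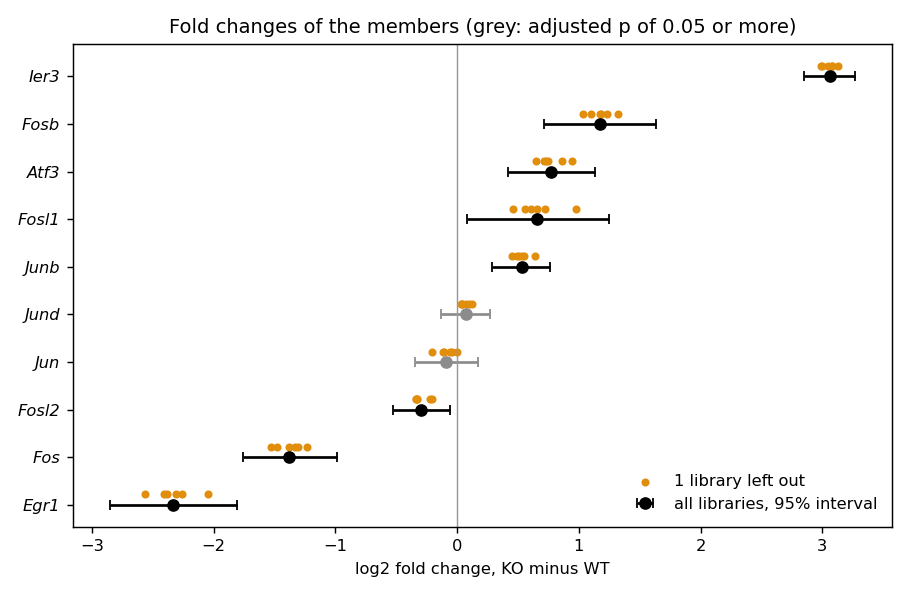
Log2 fold change, KO minus WT, of the 10 genes (x axis), with the 95% interval of limma (circles and bars) and the values with 1 library left out (orange points above). Grey marks Jun and Jund, which did not pass. The order runs from Ier3 at 3.06 down to Egr1 at -2.33.

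Levels of different genes were compared per kb of annotated exon, as CPM per kb. In both lines Fosl2 was the most abundant transcript of the Fos family and Jund that of the Jun family, but the remainder of the Fos family was made up differently. Fos held 11.3%, 15.9% and 15.0% of the summed CPM per kb of the family in the KO libraries and 27.4%, 30.8% and 24.5% in the WT libraries. Fosl1 held 14.1%, 15.4% and 16.7% in the KO libraries and 5.16%, 6.53% and 11.8% in the WT libraries. For both, the shares of the groups did not overlap, and Fosl1 stood beside Fos in KO while Fos was well above it in WT. The order of Fosl1 and Fos is uncertain, since 57.2% of the exon length of Fosl1 overlaps Ccdc85b with the assignment of reads unknown. Fosb held 1.84% to 2.56% in KO and 0.614% to 0.832% in WT. Fosl2 held 65.8% to 72.5% in KO and 61.9% to 66.6% in WT, which overlapped.

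The family as a whole was at 30.3 ± 2.26 CPM per kb in KO and 39.8 ± 2.23 CPM per kb in WT. In the Jun family, Junb held 23.5% ± 3.11 of the CPM per kb in KO and 18.0% ± 1.31 in WT, and Jund 69.3% ± 3.53 in KO and 73.5% ± 0.419 in WT. The family sum was 390 ± 12.9 CPM per kb in KO and 352 ± 16.9 CPM per kb in WT. Summed Jun transcripts were thus well above summed Fos transcripts in both lines. The length is that of all annotated exons joined, which overstates it for genes with several forms. Of that length, 57.2% in Fosl1 and 52.6% in Jund overlap a gene on the opposite strand. How reads there were assigned is not given in the sources used here, so the shares of both genes are uncertain. Without division by length the share of Fos differed by -4.75 percentage points (KO minus WT) in place of -13.5, and that of Fosl1 by 1.97 in place of 7.56. No test was made on these shares.

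**Figure D3:**
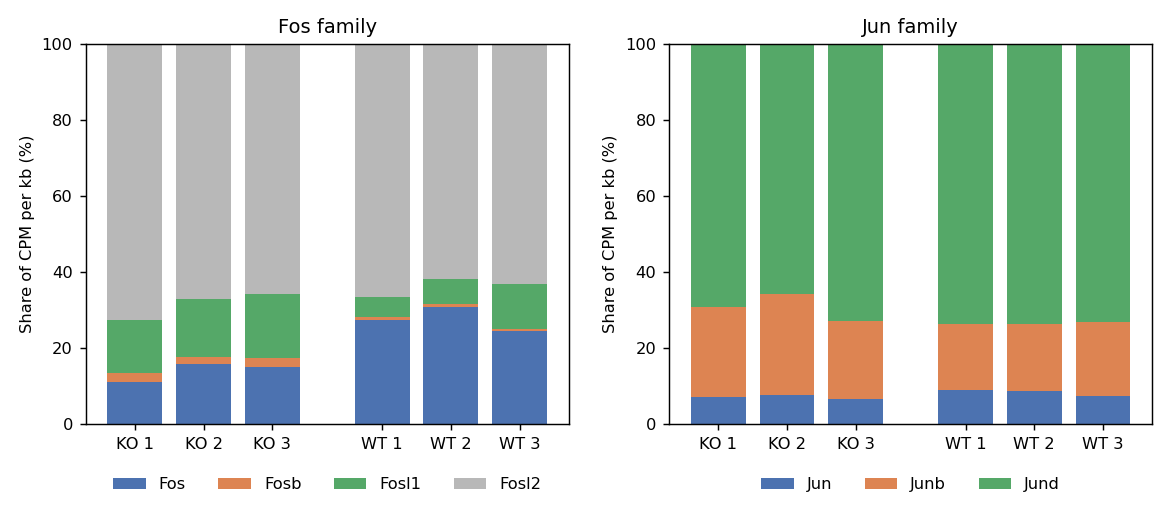
Share of the summed CPM per kb of exon (y axis, %) held by each gene of the Fos family (left) and of the Jun family (right) in each KO and WT library. Fos takes 11.3% to 15.9% in KO and 24.5% to 30.8% in WT, while Fosl2 and Jund take the largest part in every library.

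Atf3 (chromosome 1, 191170296 to 191218039, minus strand) encodes a stress-induced bZIP factor that often represses its targets. It was at 49.6, 58.2 and 61.7 CPM across KO libraries, against 27.8, 30.8 and 41.6 CPM across WT libraries. Each KO library was above each WT library, with WT library 3 closest (log2 fold change 0.77, SE 0.15, adjusted p = 0.0022). Of 11 genes that act with ATF3 or in the same stress response, 6 were higher and 1 lower in KO (63.6% passed, near the 68.1% of all genes). Those that rose most were Chac1, which degrades glutathione, at 76.1 ± 6.94 CPM in KO and 21.4 ± 7.67 CPM in WT, Trib3, a pseudokinase, at 51.5 ± 4.19 and 15.5 ± 5.62 CPM, and Asns, asparagine synthetase, at 202 ± 19.8 and 88.5 ± 18.4 CPM (KO and WT in each case). The factor Atf4 was at 368 ± 28.8 CPM in KO and 358 ± 68.9 CPM in WT (log2 fold change 0.06, adjusted p = 0.742), and Atf5 was at 211 ± 21.6 CPM in KO and 245 ± 62.1 CPM in WT (adjusted p = 0.392, but 0.0155 without WT library 1). Cebpb, a bZIP partner, was the one that fell, at 10.4 ± 0.542 CPM in KO and 27.8 ± 3.14 CPM in WT.

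Egr1 (chromosome 18, 34859823 to 34864984, plus strand) was at 53.1, 108 and 84.6 CPM across KO libraries, against 352, 435 and 403 CPM across WT libraries. The KO libraries spread widely among themselves, with library 2 the highest, yet all lay far below the WT libraries. The log2 fold change was -2.33 (SE 0.23, 95% interval -2.85 to -1.81, adjusted p = 3.2e-05), so KO held 0.207 times the WT level. The related zinc finger genes Egr2 and Egr3, which the same signals induce, were lower as well. Egr2 was at 0.148, 0.799 and 0.371 CPM across KO libraries, against 4.92, 6.57 and 6.47 CPM across WT libraries (log2 fold change -3.95, adjusted p = 0.00015), and its KO mean of 0.439 CPM was 0.260 CPM without KO library 2. Egr3 was at 0.0738, 0.257 and 0.212 CPM across KO libraries, against 3.42, 3.73 and 2.97 CPM across WT libraries (log2 fold change -4.16, adjusted p = 2.9e-05), from 20 reads in KO. At such low levels the size depends on the pseudocount, and with 1 CPM added the log2 fold changes of Egr2 and Egr3 were -2.30 and -1.89, while both passed in all 15 alternatives.

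The corepressors NAB1 and NAB2 bind EGR proteins and hold back their activity, and Nab2 is itself an EGR target. Nab2 was at 26.2 ± 3.46 CPM in KO and 103 ± 13.5 CPM in WT (log2 fold change -1.97, adjusted p = 3.2e-06). Nab1 was at 63.8 ± 5.97 CPM in KO and 124 ± 3.85 CPM in WT (log2 fold change -0.96, adjusted p = 1.8e-05). Arc, another EGR target best known from neurons, was at 11.3 ± 0.703 CPM in KO and 36.1 ± 5.21 CPM in WT (log2 fold change -1.66, adjusted p = 7.1e-06). Egr3 and Arc were named after their values were seen.

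**Figure D4:**
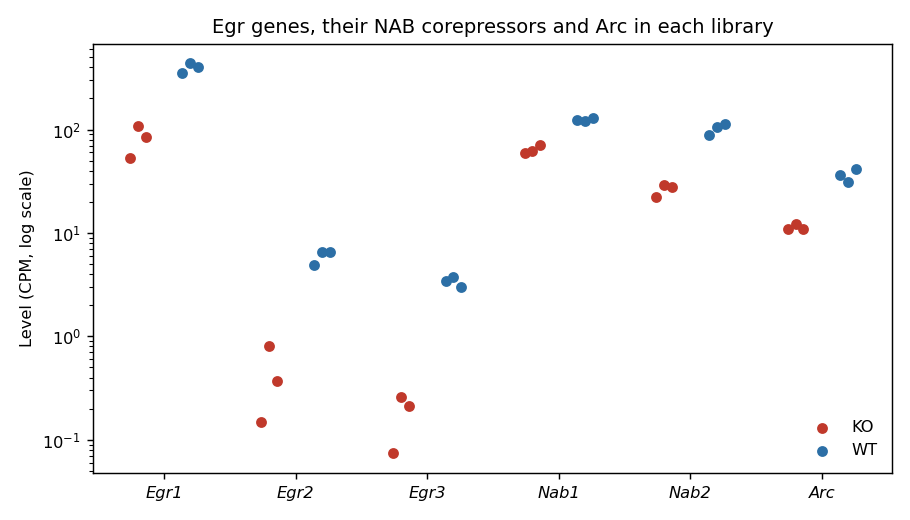
Level in CPM (y axis, log scale) of Egr1, Egr2, Egr3, Nab1, Nab2 and Arc in each KO library (red) and WT library (blue). For each gene all KO libraries lie below all WT libraries, with Egr1 at 53.1 to 108 CPM in KO and 352 to 435 CPM in WT.

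Ier3 (chromosome 17, 35821684 to 35822923, plus strand, 2 exons) had the largest change of the 10. It was at 263, 235 and 235 CPM across KO libraries, against 32.4, 26.9 and 29.0 CPM across WT libraries. The libraries of each line were close together and far from those of the other line. The mean was 8.31-fold higher in KO (log2 fold change 3.06, SE 0.09, adjusted p = 3.8e-08), a larger change in size than that of 89.9% of the genes tested. For Egr1 this share was 86.7%, for Fos 78.7% and for Fosb 75.6%, and for Jund 7.5%. Per kb of exon, Ier3 was second of the 10 in KO, at 216 ± 14.0 CPM per kb after Jund at 271 ± 17.3 and before Junb at 91.8 ± 11.9. In WT it stood at 26.0 ± 2.46 CPM per kb, within the spread of Jun at 30.0 ± 4.47 and Fosl2 at 25.5 ± 2.40. Egr1 was second in WT, at 88.4 ± 9.35 CPM per kb after Jund at 258 ± 13.6 and before Junb at 63.3 ± 2.06, whereas in KO it stood at 18.3 ± 6.16 CPM per kb. Its KO libraries, from 11.8 to 24.1 CPM per kb, spanned those of Fosl2, from 18.4 to 22.02 CPM per kb.

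The genes whose log2 CPM, centred on the mean of the gene over the 6 libraries, lay nearest to that of Ier3 were Cnksr1, a scaffold of Ras signalling (Euclidean distance 0.238 log2 units), Chrnb1, an acetylcholine receptor subunit (0.248), and Gm49654 (0.312). Those nearest to Egr1 were Plch1, a phospholipase C (0.403), Pdzrn3, a ubiquitin ligase (0.488), and 5930430L01Rik (0.499). These distances rest on 6 libraries of 2 lines, and any gene with a like difference between the lines comes out near.

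Within a line, the members did not all vary alike. In KO, Egr1 and Fos were lowest in library 1, by 0.57 and 0.30 log2 units under their KO means, and highest in library 2, at 0.46 and 0.30 above. In WT, library 3 held the highest Fosl1 and Atf3, at 0.62 and 0.34 log2 units above their WT means. The same library was lowest for Jun, Fosb and Fos, by 0.25, 0.28 and 0.22 log2 units under their WT means. Fosl2, Jund and Ier3 stayed within 0.17 log2 units of their line means in every library. With 3 libraries a line, these are descriptions without a test.

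Other primary response genes also went both ways. Of 42 listed genes 39 were tested, of which 14 were higher and 15 lower in KO (74.4% passed, near 68.1%), with a median log2 fold change of 0.06. Ccn2, a matricellular protein induced through YAP and SRF, was at 3594 ± 301 CPM in KO and 431 ± 128 CPM in WT. Ptgs2, the inducible cyclooxygenase, was at 33.9 ± 1.57 CPM in KO and 10.6 ± 3.21 CPM in WT. Gadd45b, a stress sensor, was at 213 ± 15.1 CPM in KO and 70.1 ± 15.9 CPM in WT. Besides Egr2 and Egr3, the genes of this list that fell most were the helix-loop-helix inhibitors Id3, at 21.3 ± 10.2 CPM in KO and 267 ± 69.2 CPM in WT, and Id2, at 29.6 ± 9.03 CPM in KO and 242 ± 8.88 CPM in WT.

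Some of the best known genes of this class were looked up after the values were seen. Myc was higher, at 97.0 ± 11.6 CPM in KO and 47.2 ± 13.8 CPM in WT, and so was the antiproliferative gene Btg2, at 385 ± 8.17 CPM in KO and 174 ± 11.4 CPM in WT. The orphan receptor Nr4a1, usually induced with Egr1, was at 12.1 ± 0.773 CPM in KO and 11.8 ± 0.668 CPM in WT, short of the threshold (adjusted p = 0.802). Ier2 was lower, at 47.0 ± 3.81 CPM in KO and 58.3 ± 2.91 CPM in WT (adjusted p = 0.0118, but 0.0562 without WT library 2), and Ier5 higher, at 166 ± 6.57 CPM in KO and 108 ± 3.0 CPM in WT. The survival gene Mcl1 and Phlda1 were named by the rule given below and not by this look-up. Mcl1 was at 312 ± 15.8 CPM in KO and 302 ± 17.7 CPM in WT (adjusted p = 0.615, limma). Phlda1 was at 59.9 ± 18.2 CPM in KO and 55.9 ± 0.763 CPM in WT (adjusted p = 0.79, limma).

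Of the other bZIP factors of the AP-1 and MAF families, 9 of 13 were tested, 4 higher and 4 lower (88.9% passed, median log2 fold change -0.48), against 68.1% and a median of 0.01 over all genes tested. The small MAF factors, which lack an activation domain, were all higher: Maff at 81.6 ± 6.79 CPM in KO and 26.2 ± 10.9 CPM in WT, Mafk at 82.9 ± 3.37 CPM in KO and 48.3 ± 9.98 CPM in WT, and Mafg at 116 ± 4.38 CPM in KO and 82.0 ± 9.11 CPM in WT. The large factor Maf was lower, at 3.56 ± 1.72 CPM in KO and 87.1 ± 3.24 CPM in WT, as were Batf2, at 0.855 ± 0.225 CPM in KO and 7.47 ± 0.789 CPM in WT, and Atf7, at 72.9 ± 15.1 CPM in KO and 125 ± 5.64 CPM in WT.

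Of 13 tested factors that act at the serum response and cyclic AMP response elements of immediate early genes, 2 were higher and 7 lower (69.2% passed, near 68.1%, median log2 fold change -0.30). Elk3 and Elk1, ETS partners of serum response factor, were at 96.3 ± 2.75 CPM in KO and 46.6 ± 4.99 CPM in WT, and at 33.2 ± 0.348 CPM in KO and 26.6 ± 1.12 CPM in WT. Atf1, a CREB relative, was at 24.7 ± 1.85 CPM in KO and 45.3 ± 5.78 CPM in WT, and the coactivator Crebbp at 57.5 ± 8.85 CPM in KO and 91.6 ± 8.96 CPM in WT. Mef2d was at 75.3 ± 9.21 CPM in KO and 123 ± 6.87 CPM in WT. The actin-regulated coactivators Mrtfa and Mrtfb did not pass (adjusted p = 0.0572 and 0.0763, the second 0.00317 without KO library 3).

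Of 24 tested MAP kinase cascade genes, 7 were higher and 8 lower (62.5% passed, against 68.1%, median log2 fold change -0.10). The p38 isoform Mapk13 was at 57.6 ± 5.01 CPM in KO, from 6514 reads, with 2 reads in WT (ratio 3353, counting interval 928 to 27700). The p38 isoform Mapk11 was at 29.8 ± 6.22 CPM in KO and 16.4 ± 0.985 CPM in WT, and the JNK activator Map2k4 at 162 ± 8.25 CPM in KO and 101 ± 2.7 CPM in WT. Map3k1, a kinase upstream of JNK, was at 22.8 ± 2.76 CPM in KO and 106 ± 10.7 CPM in WT. The kinase Rps6ka5, which phosphorylates CREB and histone H3, was at 3.21 ± 0.247 CPM in KO and 13.7 ± 0.394 CPM in WT. Looked up after the values were seen, the ERK gene Mapk3 was lower, with a log2 fold change of -0.61 (adjusted p = 0.0019), and the JNK genes Mapk8 and Mapk9 higher, by 0.41 (adjusted p = 0.0042) and 0.35 (adjusted p = 0.0049).

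Of 15 tested partners and restrainers of AP-1 and EGR1, 4 were higher and 7 lower (73.3% passed, near 68.1%). Besides Nab1 and Nab2, the SUMO protease Senp1 was lower, at 44.7 ± 4.85 CPM in KO and 89.9 ± 9.08 CPM in WT, and the repressor Tgif1 higher, at 173 ± 14.0 CPM in KO and 54.7 ± 5.99 CPM in WT. The Jun coactivator Cops5 was higher by a log2 fold change of 0.39. Partners that did not pass were Ets1 (adjusted p = 0.277, but 0.0322 without KO library 2) and Runx1 (adjusted p = 0.229, but 0.0231 without WT library 3). Of 9 tested genes of mRNA decay, 3 were higher and 4 lower (77.8% passed, against 68.1%). Zfp36, which binds AU-rich elements of Fos and other immediate early transcripts, was at 17.5 ± 2.21 CPM in KO and 28.9 ± 1.88 CPM in WT (log2 fold change -0.73, adjusted p = 0.0007). Its relative Zfp36l2 was at 83.1 ± 2.17 CPM in KO and 131 ± 6.88 CPM in WT, and Hnrnpd, which encodes AUF1, at 61.5 ± 13.3 CPM in KO and 182 ± 40.5 CPM in WT. The deadenylase subunit Cnot7 was higher, at 130 ± 3.26 CPM in KO and 91.1 ± 1.96 CPM in WT. Elavl1 and Khsrp, which encode AU-rich element binding proteins, had small rises of 0.26 and 0.23 log2 units (adjusted p = 0.0235 and 0.0308) that leaving out 1 library could undo (adjusted p up to 0.0802 and 0.1).

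Of 34 textbook targets of AP-1 or EGR1, 28 were tested, of which 11 were higher and 9 lower (71.4% passed, near 68.1%, median log2 fold change 0.13). The cornified envelope gene Sprr1a was at 234 ± 25.9 CPM in KO and 0.423 ± 0.0883 CPM in WT, and the collagen-binding integrin Itga2 at 26.4 ± 3.84 CPM in KO and 0.197 ± 0.0149 CPM in WT. The EGF receptor ligand Ereg had 662 reads in KO and 1 in WT (ratio 682, counting interval 122 to 26960), and that read was in WT library 1. The quinone reductase Nqo1 was lower, at 0.827 ± 0.229 CPM in KO and 10.4 ± 5.42 CPM in WT. So were the protease inhibitor Timp1, at 7.0 ± 0.492 CPM in KO and 34.6 ± 7.76 CPM in WT, and the metallothionein Mt2, at 10.7 ± 5.05 CPM in KO and 47.6 ± 15.8 CPM in WT. The cell cycle inhibitor Cdkn1a (adjusted p = 0.673) did not pass. Named after their values were seen, the urokinase gene Plau, an AP-1 target, was at 4527 ± 453 CPM in KO and 95.9 ± 9.01 CPM in WT, and tissue factor F3, an EGR1 target, at 1349 ± 99.4 CPM in KO and 227 ± 37.5 CPM in WT.

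Heat shock genes, which like immediate early genes respond to the handling of cells, were mostly higher in KO. Of 11 tested, 9 were higher and 1 lower (90.9% passed, median log2 fold change 0.61), against 68.1% passing, 34.3% higher and a median of 0.01 over all genes tested. Their summed level was 4675 to 5081 CPM in KO and 3159 to 3417 CPM in WT. Hspb1 was at 157 ± 23.7 CPM in KO and 38.5 ± 2.44 CPM in WT, and Hspe1 at 56.2 ± 1.82 CPM in KO and 33.6 ± 4.42 CPM in WT. Hspa1b was at 64.8 ± 10.5 CPM in KO and 14.5 ± 2.69 CPM in WT, but shares near-identical sequence with Hspa1a, so the split between these genes is uncertain. Dnajb1 was the one that was lower (adjusted p = 0.0169, but 0.0595 without KO library 2), and Hsph1 did not pass (adjusted p = 0.829). The part of culture handling in the values of the immediate early genes was not tested.

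**Figure D5:**
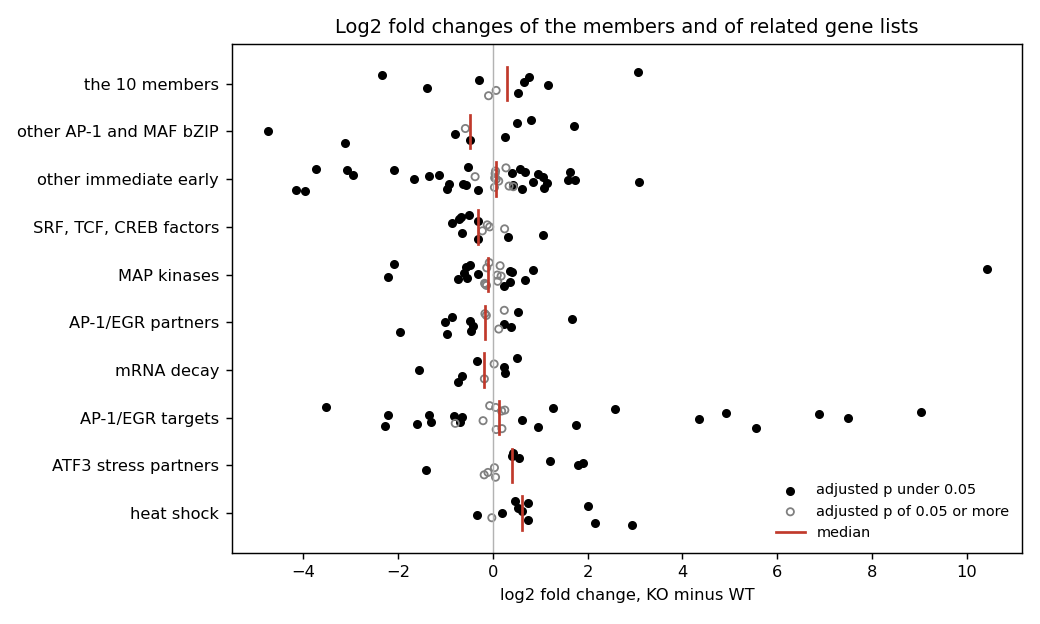
Log2 fold change, KO minus WT (x axis), of the 10 members and of the tested genes of 9 related lists (1 point a gene). Filled points passed at an adjusted p under 0.05, open points did not, and the red line is the median of each list. The medians run from -0.48 for the other AP-1 and MAF factors to 0.61 for heat shock genes.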

How the data were processed

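The authors deposited 1 table of log2 CPM with a column for each library. Per the submitters' processing notes, edgeR, Subread 1.6.4 with featureCounts, STAR 2.7.3a and Trimmomatic 0.39 were used on the GRCm38 build. Of annotation, strand setting, filter and prior nothing is given in the sources used here. All columns share a lowest value of -5.26. After it was subtracted on the linear scale, 100% of values under 2000 reads were whole multiples of the step of their column (tolerance 0.001 of the read number), which gave the reads, a mean prior of 1 read, and CPM without the prior.

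limma 3.58.1 (R 4.3.3) was fitted to the deposited log2 values, KO minus WT, with an intensity trend, on 12616 genes above 0 log2 CPM in 3 or more libraries (187 were not tested). Adjusted p-values are Benjamini-Hochberg over those genes, with 0.05 as the threshold. The procedure was tested on simulated data in which few genes changed. In the real data 68.1% of genes tested passed, a setting that the simulation does not cover. Counting intervals are exact (95%) and cover counting error only. Exon lengths and positions are from GENCODE M21, where 12673 of 12803 symbols were found.

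The members and lists were chosen with earlier results of these data known. The rule for named genes took all members, Myo1e, and from each list up to 3 risen and 3 fallen genes with groups that did not overlap and at least 5 CPM in the higher line, up to 2 of the highest genes that did not pass, and 3 genes nearest in pattern to the members with the highest and lowest fold change. Genes outside it are marked in the text, apart from some markers and the genes that overlap members. The markers Epcam, Cldn3, Cldn7, Wt1 and Acta2 were named outside it, with their values known. Some genes that the rule names are not reported here. Alternatives were other filters, pseudocounts, scalings, no trend, voom, a replicate block and leaving out each library.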

Additional observations from a re-analysis of the deposited data

How the results depend on the processing

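Over 15 alternatives, the counts of all genes called (7573 to 8743), of members called (6 to 8) and of genes called in the 9 related lists stayed within 1.5 times the values reported. Junb, Fosb, Fos, Atf3, Egr1, Ier3 and Myo1e passed in the same direction in every alternative run. Fosl1 passed in 9 and Fosl2 in 12 of the 15. Besides the libraries named beside their values, both calls were lost without the intensity trend (adjusted p = 0.0636 and 0.0556, limma). The log2 fold change of Jun, not called, was 0.0 with its sign turned without WT replicate 1 (adjusted p = 0.993) and -0.21 without WT replicate 3, where fewer samples were used and the cause was not tested. Scaling moved the median log2 fold change of all genes to at most 0.06. The share of the Jun family held by Jun differed by -2.32 percentage points without division by length, against -1.33 with it.

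The replicate numbers of the titles did not pair the libraries: deviations of same-numbered KO and WT libraries correlated over genes at 0.101, 0.081 and -0.095, and not every library correlated best with its own number. With the replicate number as a block, 8395 genes passed in place of 8590, and 8 members.

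Of the members, Fosb rests on the fewest reads (464 in KO and 215 in WT), so counting error is largest for it. With 3 libraries a line, the calls of Fosl1 and Fosl2 lie near the threshold.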

Other observations

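Several stress-related genes were highest in WT library 3 among the WT libraries, as Fosl1 and Atf3 were. Ddit3, which encodes the stress factor CHOP, was at 73.1, 61.9 and 68.3 CPM across KO libraries, against 51.1, 66.3 and 113 CPM across WT libraries. Chac1 was at 68.7, 77.3 and 82.4 CPM across KO libraries, against 13.5, 21.7 and 28.9 CPM across WT libraries, and Trib3 at 50.1, 56.2 and 48.2 CPM across KO libraries, against 9.53, 16.2 and 20.7 CPM across WT libraries. Maff was at 89.2, 79.6 and 76.0 CPM across KO libraries, against 17.2, 23.1 and 38.4 CPM across WT libraries, and Myc at 88.7, 110 and 92.1 CPM across KO libraries, against 35.8, 43.5 and 62.5 CPM across WT libraries. For Chac1, Trib3, Maff and Myc that library still lay below every KO library, while for Ddit3 it lay above them. Not all stress-related genes were highest in WT library 3. Across WT libraries, Hspa1b was at 17.5, 13.3 and 12.5 CPM and Dnajb1 at 116, 99.4 and 97 CPM. Atf5 was at 177, 298 and 259 CPM across WT libraries. The genes of this paragraph were picked for it after their values were seen, and no test was made.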
